A study of Mus musculus with 6 samples.

Results

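The 30 genes described here encode parts of the machinery that moves membrane and cargo between the endoplasmic reticulum, the Golgi apparatus, endosomes and lysosomes, together with subunits of the V-ATPase, the proton pump that acidifies these compartments. They were chosen by name: each probe set with values whose single gene symbol starts with 1 of 20 prefixes (Rab followed by a digit, Arf, Arl, Cop, Sar1, Sec, Trapp, Golg, Golm, Atp6, Snx, Vps, Vamp, Stx, Ap1, Ap2, Ap3, Tmed, Ehd or Gbf) was taken, and a gene with several probe sets was represented by the brightest over all 6 arrays. This gave 30 of the 494 genes that could be named, under 15 of the 20 prefixes. No gene under Arl, Vamp, Stx, Ap2 or Ap3 was among those analysed here. The rule uses names and no values other than the brightness that picks the probe set, but it was set with earlier results of these data known. In 3 of the 30 the symbol has the prefix but the product is not known for vesicle traffic: Cops4 and Cops8 belong to the COP9 signalosome, which removes Nedd8 from cullin ubiquitin ligases, and Sec61a1 forms the channel through which new proteins enter the endoplasmic reticulum.

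The samples were whole hearts of 3 wild-type mice and 3 Pgc1b knockout mice, both on a mixed sv129 and C57BL/6 background and fed ad libitum, with 1 Affymetrix array per heart. Pgc1b, now named Ppargc1b, encodes a coactivator of nuclear receptors that control mitochondrial genes, and the study concerned the link between mitochondria and insulin signalling. The labels call the hearts biological replicates and give no age or sex. They give all 6 hearts the same date. Ppargc1b itself was not analysed here, and no check of the genotypes against it was made. The cardiac genes Actc1 and Fabp3 had at least 14.09 and 13.47 in every heart, on a log2 scale whose highest value was 14.15.

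Transport vesicles bud from a donor membrane under a protein coat, which a small GTPase of the Sar1 or Arf family recruits, and fuse with a target membrane that Rab GTPases and tethers help to recognise and SNARE proteins merge. COPII coats carry cargo out of the endoplasmic reticulum, COPI coats return it from the Golgi, AP-1 adaptors work with clathrin at the trans-Golgi and endosomes, and the retromer brings receptors back from endosomes. In heart muscle these routes carry, among other cargo, the insulin-responsive glucose transporter, ion channels and connexins to the cell surface. The V-ATPase supplies the acid that lysosomal enzymes need.

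As a whole, these genes showed no common shift between the genotypes. The mean was higher in knockout hearts for 16 of the 30 genes and lower for 14, while 52.4% of all 494 genes had a higher mean. The median difference, knockout minus wild type, was 0.01 on the log2 scale for the 30 genes and 0.01 for all 494, and without Cops4, Cops8 and Sec61a1 it was -0.03. With each array centred on its own median, which moved the median of all genes to -0.04, 11 of the 30 were higher (36.7%, against 53.3% without centring) and 39.7% of all genes were.

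The quartiles of the 30 differences were -0.08 and 0.08, and those of all genes were -0.09 and 0.10. The median size of the difference was 0.08 for the 30 genes and 0.10 over all 494 genes. The extremes were Arfgef1 at -0.24 and Sar1a at 0.28, whereas differences over all genes ran from -0.55 to 0.94. The mean of the 30 genes in each heart was 7.957, 7.987 and 8.026 in the wild-type hearts and 7.971, 8.009 and 7.998 in the knockout hearts. The genotypes overlap, and the wild-type hearts alone span more than the difference between the genotypes.

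**Figure D1:**
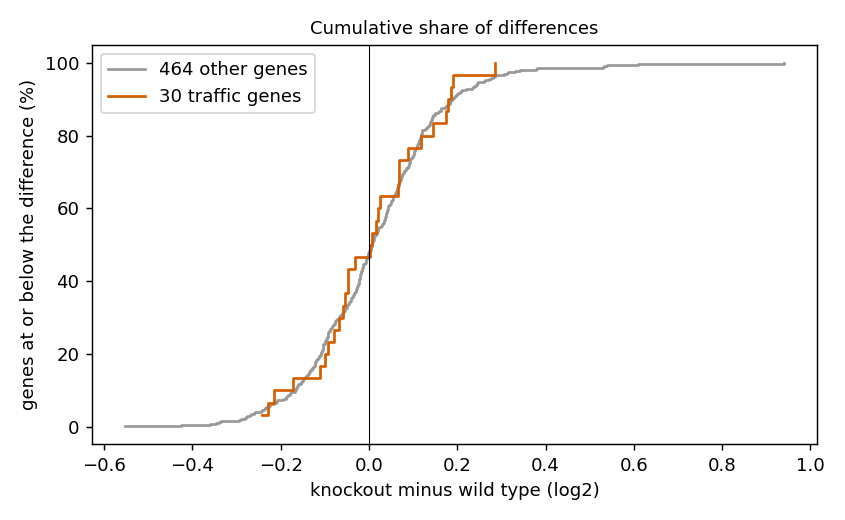
Cumulative share of genes (y axis, percent) by the difference between knockout and wild-type hearts (x axis, log2), for the 30 traffic genes and the 464 other genes. Both curves have their median at 0.01 and run close together, and the traffic genes lie between -0.24 and 0.28 while the other genes reach from -0.55 to 0.94.

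No gene of the group passed limma at a Benjamini-Hochberg adjusted p under 0.05, as was the case for all 494 genes (0% called), and the smallest adjusted p among the 30 was 0.378. At an unadjusted p under 0.05 there were 4 of the 30, or 13.3%, against 11.5% of all genes. They were Sar1a and Tmed3, with higher means in knockout hearts, and Ap1m1 and Vps26c, with lower ones. The values of the genotypes did not overlap in 5 of the 30 genes, or 16.7%, against 19.4% of all genes. In 3 of the 5 all knockout hearts lay above all wild-type hearts (9.51% of all genes) and in 2 below (9.92% of all genes). Both shares were near the background, so these counts mark nothing particular to traffic genes.

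In place of those 4, a single gene had an unadjusted p under 0.05 without wild-type replicate 2 (Ap1m1), without knockout replicate 2 (Tmed3) or without knockout replicate 3 (Sec22b). The share of all genes was also lower in these fits than with every heart, at 8.1%, 6.9% and 8.9%. Leaving out knockout replicate 1 gave 5 of the 30, against 14.98% of all genes. The count was 4 when wild-type replicate 1 was dropped (10.5% of all genes). Dropping the third wild-type heart gave 3 (8.3% of all genes). The 95% intervals from limma reached a median of 0.21 to either side of the estimate on the log2 scale. In 1 of the 30 genes, Arfgef1, the interval took in a 1.5-fold change (0.58 on the log2 scale).

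**Figure D2:**
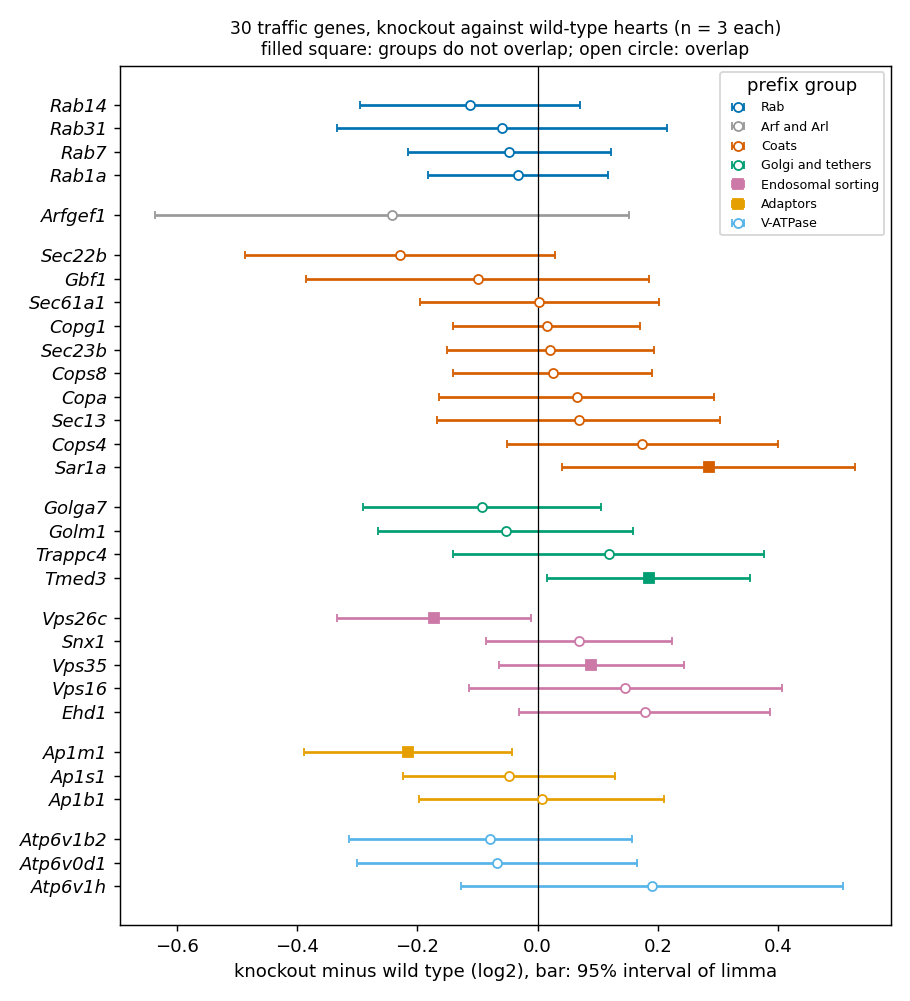
Difference between knockout and wild-type hearts (x axis, log2) for each of the 30 genes, ordered within groups of prefixes, with 95% intervals from limma (n = 3 hearts per genotype). Filled squares mark the 5 genes whose genotypes do not overlap, and the intervals of Sar1a, Tmed3, Ap1m1 and Vps26c leave out 0.

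A promoter sequence was found by symbol for 21 of the 30 genes in a RefSeq table of assembly GRCm38.p6, and the 250 bases before the transcription start are shown for the 3 of them whose unadjusted p was under 0.05. No sequence was matched for Ap1m1. Capitals mark matches to motifs of factors that work with PGC-1 coactivators or that control lysosomal genes. The windows are chr10:61680035-61680284 on the plus strand for Sar1a, chr9:89705044-89705293 on the minus strand for Tmed3 and chr16:94526630-94526879 on the minus strand for Vps26c.
Sar1a: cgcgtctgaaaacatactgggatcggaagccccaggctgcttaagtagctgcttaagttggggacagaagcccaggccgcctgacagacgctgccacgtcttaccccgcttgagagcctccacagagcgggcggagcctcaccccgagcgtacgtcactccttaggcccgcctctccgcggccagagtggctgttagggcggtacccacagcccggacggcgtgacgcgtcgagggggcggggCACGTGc
Tmed3: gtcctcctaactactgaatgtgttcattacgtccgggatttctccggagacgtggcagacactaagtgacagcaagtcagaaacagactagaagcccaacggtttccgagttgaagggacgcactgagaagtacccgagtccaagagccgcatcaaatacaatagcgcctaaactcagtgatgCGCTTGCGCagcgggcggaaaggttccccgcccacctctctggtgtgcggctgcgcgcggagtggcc
Vps26c: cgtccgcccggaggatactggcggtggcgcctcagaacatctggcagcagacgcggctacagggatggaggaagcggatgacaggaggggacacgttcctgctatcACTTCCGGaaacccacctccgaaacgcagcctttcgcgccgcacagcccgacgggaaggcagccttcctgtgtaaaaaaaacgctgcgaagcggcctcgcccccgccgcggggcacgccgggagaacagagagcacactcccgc

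The capitals in Sar1a are an E-box (CACGTG), those in Tmed3 a match to the core of the NRF1 site (GCGCANGCG) and those in Vps26c a match to the GABP site (CCGGAAGT), each searched on both strands. An E-box was found in 3 of the 21 genes (Cops8, Sar1a and Vps16) and in 6.02% of the 32851 windows of the same length in the table. The NRF1 core was found in 6 (Ap1s1, Atp6v0d1, Copg1, Rab14, Rab1a and Tmed3) and in 5.16% of all windows, and the GABP site in 3 (Golm1, Sec13 and Vps26c) and in 2.88%. The 21 genes had 23 windows, of which 3 held an E-box, 6 the NRF1 core and 3 the GABP site. All windows of the table were counted, not only those of genes with values here, and the shares were not tested against each other. The longer E-box of lysosomal genes (TCACGTGA, which contains CACGTG) was found only in Vps16 and in 0.785% of all windows, and the element bound by oestrogen-related receptors (TNAAGGTCA) in 0 of the 21 and in 1.14%. The genes with an NRF1 core or a GABP site did not share a direction. Of the 6 with an NRF1 core, Tmed3 (0.18) and Copg1 (0.01) had higher and Ap1s1, Atp6v0d1, Rab14 and Rab1a lower means in knockout hearts. With a GABP site, Sec13 (0.07) had a higher mean and Golm1 and Vps26c lower ones. All 3 genes with an E-box had higher means (Cops8 0.02, Sar1a 0.28 and Vps16 0.15). Of these, Cops8 changed sign in 3 of the 15 alternatives, and the shared direction was not tested. A match is a stretch of letters, and binding was not measured.

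Among transcripts named for the early secretory route, Sar1a had an unadjusted p under 0.05. Of the 10 genes under the prefixes Cop, Sar1, Sec and Gbf, 8 had higher means in knockout hearts, with a median difference of 0.02. With each array centred only 4 did and the median was -0.02. Centring lowered all genes alike, leaving 39.7% of them with higher means and a median of -0.04. Without knockout replicate 2 the count of the 10 was also 4, and 49.8% of all genes had higher means. Without Cops4, Cops8 and Sec61a1, 5 of 7 had higher means. Sar1a encodes the GTPase that starts the COPII coat. Its signal was 9.09, 8.85 and 9.09 in the wild-type hearts and 9.13, 9.40 and 9.35 in the knockout hearts. All 3 knockout hearts were above all wild-type hearts, but knockout replicate 1 only just so. The group values were 9.01 ± 0.14 and 9.29 ± 0.14 (SD, n = 3 each), a difference of 0.28 (95% interval 0.04 to 0.53, unadjusted p = 0.0281, adjusted p = 0.383 in limma), and the knockout signal was 122% of wild type. The unadjusted p stayed under 0.05 in 9 of the 15 alternatives, and the adjusted p ran from 0.206 to 0.619. Among the 9 are the minimum mean and the other choices of probe set, which leave the values of this gene unchanged.

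The other measured subunits of the COPII coat had smaller differences, whose contrast with Sar1a was not tested. Sec13, part of the outer COPII layer and also of nuclear pores, differed by 0.07 (95% interval -0.17 to 0.30). Sec23b, of the inner layer that binds Sar1, differed by 0.02 (-0.15 to 0.19). Both had their highest value in knockout replicate 2, and without that heart the differences were -0.02 and -0.03. The interval of Sec13 takes in the difference of Sar1a.

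For the COPI coat, Copa, its alpha subunit, read 9.56, 9.90 and 9.79 in the wild-type hearts and 9.81, 9.76 and 9.86 in the knockout hearts. Wild-type replicate 1 was the lowest heart and the rest overlapped. The difference was 0.06 (95% interval -0.16 to 0.29), and -0.03 without that heart. Copg1, the gamma subunit, differed by 0.01 (-0.14 to 0.17), and its dimmer probe set by 0.10. Gbf1, the exchange factor that activates Arf at the Golgi so that COPI can assemble, differed by -0.10 (-0.39 to 0.19) and by -0.12 in a dimmer probe set. Arfgef1 (also known as BIG1) activates Arf at the trans-Golgi and was the 1 measured gene under Arf. It stood at 9.04, 9.09 and 9.06 in the wild-type hearts and at 9.08, 8.40 and 8.99 in the knockout hearts. Knockout replicate 2 stood below the other 5 hearts. The difference was -0.24 (95% interval -0.64 to 0.15), and -0.03 without that heart.

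Sec22b is a SNARE of traffic between the endoplasmic reticulum and the Golgi, and it had the second-lowest difference of the 30 genes. Its values were 6.02, 6.31 and 6.30 in wild-type hearts and 5.94, 5.87 and 6.14 in knockout hearts. Wild-type replicate 1 fell among the knockout values, and the difference was -0.23 (95% interval -0.49 to 0.03, unadjusted p = 0.0741 in limma). The unadjusted p was under 0.05 in 5 of the 15 alternatives, and the adjusted p ran from 0.250 to 0.781 over them. Sec61a1 differed by 0.00 in its brightest probe set and by 0.17 and 0.09 in the dimmer ones. The signalosome genes differed by 0.17 for Cops4 (-0.05 to 0.40) and 0.02 for Cops8 (-0.14 to 0.19).

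At the Golgi, Tmed3, a cargo receptor of the p24 family that shuttles in COPI and COPII vesicles, was the second gene with a higher mean at an unadjusted p under 0.05. Its signal was 7.835, 7.942 and 7.910 in the wild-type hearts and 8.154, 8.004 and 8.084 in the knockout hearts. The groups did not overlap, with a gap of 0.06 between the nearest hearts. The means were 7.90 ± 0.05 and 8.08 ± 0.08 (SD, n = 3 each), a difference of 0.18 (95% interval 0.02 to 0.35, unadjusted p = 0.0355, adjusted p = 0.383 in limma, and from 0.348 to 0.736 over the alternatives). The unadjusted p stayed under 0.05 in 4 of the 15 alternatives. These were the minimum mean and the other choices of probe set, which leave the values of this gene unchanged, and the fit without knockout replicate 2. Knockout replicate 1 was the highest heart for Tmed3 but the lowest of the knockout hearts for Sar1a.

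Golga7, a Golgi protein that assists the palmitoylation of Ras, read 8.945, 8.947 and 9.151 in the wild-type hearts and 9.002, 8.914 and 8.851 in the knockout hearts. The genotypes overlapped, with wild-type replicate 3 apart from the rest, and the difference was -0.09 (95% interval -0.29 to 0.11). Trappc4, a core subunit of the TRAPP tethers, differed by 0.12 (-0.14 to 0.38) and Golm1, a Golgi membrane glycoprotein, by -0.05 (-0.27 to 0.16). These 4 genes were evenly divided in direction, with a median of 0.03, and of -0.04 without wild-type replicate 2.

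All 4 measured Rab genes had slightly lower means in knockout hearts, with a median difference of -0.05, and none had an unadjusted p under 0.05. The median was -0.10 without wild-type replicate 1 and -0.02 without wild-type replicate 3. Rab1a, which acts between the endoplasmic reticulum and the Golgi, was the steadiest of the 30 genes. Its signal was 11.11, 11.14 and 11.17 in the wild-type hearts and 11.07, 11.09 and 11.15 in the knockout hearts. The ranges overlapped, and the difference was -0.03 (95% interval -0.18 to 0.12). Rab7, the GTPase of late endosomes and lysosomes, differed by -0.05 (-0.22 to 0.12), and Rab14, of the Golgi and early endosomes, by -0.11 (-0.30 to 0.07). Rab31, of the route from the trans-Golgi to endosomes, differed by -0.06, and without wild-type replicate 3, whose value of 6.99 was well above the other 5 hearts, by 0.08. The mean of the 4 genes was 8.78, 8.86 and 8.95 in the wild-type hearts and 8.80 in each knockout heart, so that the wild-type hearts differed among themselves by more than the genotypes did. The 4 genes kept the lower mean after quantile normalization. Centring lowered the difference of every gene by the same amount, so it could not turn a lower mean.

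In endosomal sorting, 4 of 5 genes had higher means in knockout hearts, with a median of 0.09, and the 5th, Vps26c, was lower. Vps35, the scaffold of the retromer, read 9.82, 9.91 and 9.84 in the wild-type hearts and 9.92, 9.99 and 9.92 in the knockout hearts. The groups did not overlap, but by 0.01 between the nearest hearts, and the difference of 0.09 (95% interval -0.06 to 0.24) had an unadjusted p = 0.214 in limma. Its dimmer probe set differed by 0.22 with overlap. Vps26c belongs to the retriever, a complex related to the retromer that recycles integrins and other receptors. It read 7.47, 7.59 and 7.54 in the wild-type hearts and 7.42, 7.35 and 7.31 in the knockout hearts. Every knockout value was below every wild-type value, with means of 7.53 ± 0.06 and 7.36 ± 0.05 (SD, n = 3 each) and a difference of -0.17 (95% interval -0.33 to -0.01, unadjusted p = 0.0398, adjusted p = 0.383 in limma, and from 0.253 to 0.621 over the alternatives). The unadjusted p stayed under 0.05 in 8 of the 15 alternatives. Among the 8 are the minimum mean and the other choices of probe set, which leave the values of this gene unchanged.

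The other endosomal genes overlapped between the genotypes. Ehd1, an ATPase of endosomal recycling, differed by 0.18 (95% interval -0.03 to 0.39) in its brightest probe set, whose name marks it as able to hybridise to other transcripts. Its other probe sets differed by 0.21 and -0.02. Vps16, a core subunit of the HOPS and CORVET tethers, differed by 0.15 (-0.11 to 0.41), and Snx1, a sorting nexin that works with the retromer, by 0.07 (-0.09 to 0.22).

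**Figure D3:**
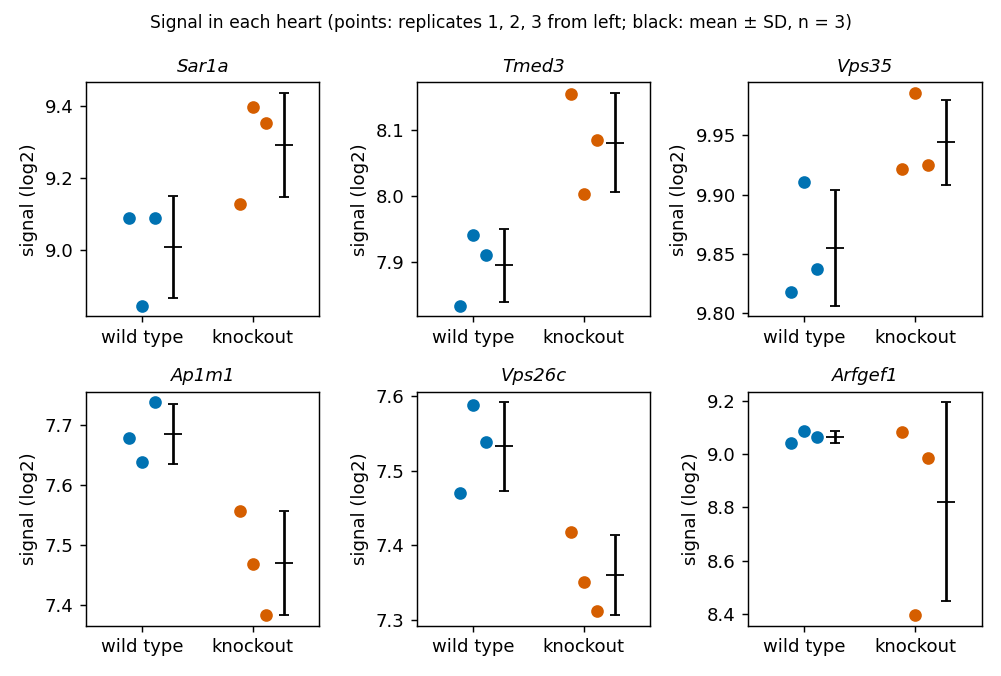
Signal in each heart (y axis, log2, with a separate range in each panel) for the 5 genes whose genotypes do not overlap and for Arfgef1, with the mean and SD of 3 hearts in black. In Arfgef1 knockout replicate 2 lies at 8.40 while the other 5 hearts lie between 8.99 and 9.09.

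Of the 3 measured subunits of the AP-1 adaptor, 1 had an unadjusted p under 0.05. Ap1m1, the mu1A subunit that reads tyrosine sorting signals in cargo, had the smallest unadjusted p of the 30 genes. Its signal was 7.68, 7.64 and 7.74 in the wild-type hearts and 7.56, 7.47 and 7.38 in the knockout hearts. All knockout hearts were below all wild-type hearts, with a gap of 0.08. The means were 7.68 ± 0.05 and 7.47 ± 0.09 (SD, n = 3 each), a difference of -0.22 (95% interval -0.39 to -0.04, unadjusted p = 0.0211, adjusted p = 0.378 in limma), and the knockout signal was 86.1% of wild type. The unadjusted p stayed under 0.05 in 11 of the 15 alternatives, and the adjusted p ran from 0.240 to 0.619. Among the 11 are the minimum mean and the other choices of probe set, which leave the values of this gene unchanged.

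The other 2 AP-1 genes showed no such difference, though their contrast with Ap1m1 was not tested. Ap1b1, the beta subunit, read 7.94, 7.76 and 8.01 in the wild-type hearts and 7.99, 7.88 and 7.86 in the knockout hearts. The difference was 0.01 (95% interval -0.20 to 0.21), and it changed sign with quantile normalization or centring (-0.03 and -0.04). Ap1s1, a sigma subunit, differed by -0.05 (-0.22 to 0.13), an interval that takes in the difference of Ap1m1.

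The V-ATPase subunits showed no common direction. Atp6v0d1, a subunit of the membrane sector that links it to the rotor, read 8.21, 8.54 and 8.47 in the wild-type hearts and 8.38, 8.26 and 8.37 in the knockout hearts. The ranges overlapped and the difference was -0.07 (95% interval -0.30 to 0.17). It was -0.17 without wild-type replicate 1, -0.00078 without wild-type replicate 2 and -0.26 with the hybridisation spike level as covariate. Atp6v1b2, a nucleotide-binding subunit of the catalytic head, differed by -0.08 (-0.31 to 0.16). Atp6v1h, the regulatory H subunit, read 6.01, 6.28 and 6.10 in the wild-type hearts and 6.03, 6.48 and 6.45 in the knockout hearts. Knockout replicate 1 was among the wild-type hearts and the other 2 knockout hearts were above them all, and the difference was 0.19 (-0.13 to 0.51), or 0.34 without knockout replicate 1. The median of the 3 subunits was -0.07, but -0.00078 without wild-type replicate 2, 0.0068 without knockout replicate 1 and -0.01 with array weights.

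The highest and lowest values of these genes were spread unevenly over the hearts. Knockout replicate 2 held the highest value of the 6 hearts in 11 of the 30 genes and the lowest in 3, and wild-type replicate 1 held the highest in 3 and the lowest in 11. Over all 494 genes knockout replicate 2 held the highest value in 123 and the lowest in 61, and wild-type replicate 1 in 49 and 110. Knockout replicate 3 held the highest value in 0 of the 30 genes and in 81 of all 494. Within a genotype the median SD was 0.11 for the 30 genes, from 0.04 for Rab1a to 0.26 for Arfgef1, and 0.11 over all genes.

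**Figure D4:**
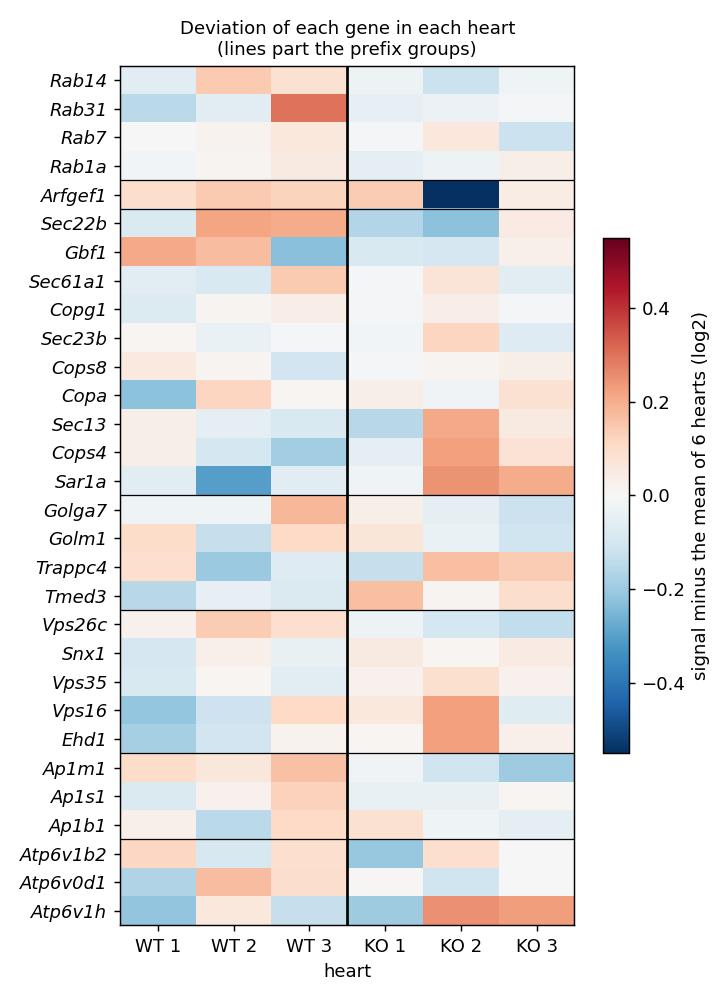
Signal of each of the 30 genes (rows, by group of prefixes) in each heart (columns) minus its mean over 6 hearts, on a log2 colour scale from blue (lower) to red (higher). Knockout replicate 2 holds the highest value in 11 genes and wild-type replicate 1 the lowest in 11.

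Of 120 other genes of coats, tethers, SNARE machinery, Rab regulators and endosomal sorting listed for this pathway, 5 were measured, and 0 passed over all genes. Gosr1, a Golgi SNARE, differed by 0.20 (95% interval -0.12 to 0.51), Surf4, a cargo receptor of the endoplasmic reticulum, by 0.07, and Tfg, which organises COPII exit sites, by 0.01. Napa, which helps to take apart SNARE complexes after fusion, differed by -0.26 (-0.54 to 0.03). Scamp3, a carrier membrane protein of endosomes, read 7.80, 7.85 and 7.96 in wild-type and 7.78, 7.74 and 7.67 in knockout hearts, without overlap, a difference of -0.14 (-0.31 to 0.03).

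Lysosomal genes, whose proteins depend on the V-ATPase and on sorting from the trans-Golgi, were also of both directions. Of the 46 listed, 4 were measured and 0 passed over all genes. Lamp1, the major lysosomal membrane protein, read 10.86, 10.84 and 11.01 in wild-type and 10.74, 10.71 and 10.76 in knockout hearts, without overlap, a difference of -0.16 (95% interval -0.33 to 0.01). Laptm4b, another lysosomal membrane protein, was higher in every knockout heart (0.19, 0.01 to 0.36, unadjusted p = 0.0418, adjusted p = 0.383 in limma). Psap, which gives rise to the saposins, differed by -0.14 and the beta-galactosidase gene Glb1 by 0.03, both with overlap.

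Measures of array handling moved with genotype. The hybridisation spikes, RNAs added in a fixed amount before hybridisation, read 10.15, 9.84 and 9.69 on the wild-type arrays and 9.55, 9.68 and 9.32 on the knockout arrays, a difference of -0.38 without overlap. With their level as a covariate, 2 of the 30 genes had an unadjusted p under 0.05, Sec22b (-0.49) and Cops4 (0.33), against 10.5% of all genes. The differences of Sar1a, Tmed3, Ap1m1 and Vps26c were 0.31, 0.12, -0.20 and -0.19. Because the spike level moved with genotype, this fit cannot fully part it from genotype. For Actb, the 3' signal minus the 5' signal, which depends on RNA quality and amplification, was 0.75, 0.74 and 0.77 on the wild-type arrays and 0.63, 0.73 and 0.51 on the knockout arrays, while for Gapdh it was 0.08 in the mean of both genotypes. The part of RNA quality in the results was not tested.

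In whole hearts, a lower share of a cell type and less RNA per cell cannot be told apart. Of 9 lists of cell type markers, 6 held a measured gene, with 10 genes in all, and 0 passed over all genes. For the 3 of 21 heart muscle markers the summed log2 level ran from 38.20 to 38.52 in wild-type and from 38.24 to 38.54 in knockout hearts. It ran from 11.51 to 12.51 in wild-type and from 11.48 to 11.66 in knockout hearts for the 2 of 10 fibroblast markers, and from 7.60 to 7.73 and from 7.48 to 7.74 for the 1 of 11 endothelial markers. The range was 11.19 to 11.60 and 11.46 to 12.09 for the 2 of 9 red cell markers, from 3.45 to 3.54 and from 3.49 to 3.74 for the 1 of 13 neutrophil and lymphocyte markers, and from 3.10 to 3.82 and from 3.25 to 3.80 for the 1 of 9 nerve markers. The part of these cells in the results was not tested. The markers of smooth muscle, macrophages and fat cells were not analysed here.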

How the data were processed

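Total RNA of 3 wild-type and 3 Pgc1b knockout hearts was amplified with a whole-transcriptome kit and hybridised to Affymetrix arrays, per the labels' protocols. The deposited values are log2 signals made by the authors, whose processing notes name the programs RMA, GCOS and Partek without versions, roles or order. RMA usually includes quantile normalization, so differences are relative to the other genes. Of 45101 probe sets listed, 707 held values in the data used here, 643 for genes and 64 for controls. Of the 643, 597 carried 1 symbol in the platform annotation, for 494 genes. A gene called measured is 1 of these 494, and shares over all genes and the adjustment cover only them. Array medians lay between 7.45 and 7.61. A genome build was not given in the sources used here.

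Knockout minus wild-type differences were fitted over all 494 genes with limma 3.58.1 in R 4.3.3 (lmFit, eBayes, two-sided, no covariate, no filter), with Benjamini-Hochberg adjustment over all genes and a threshold of 0.05, after the fit was tested on simulated data. Groups of genes were described by counts and medians, with no test. The members and lists were chosen with earlier results of these data known. All 30 members are named, with every heart's value where genotypes do not overlap, where the unadjusted p is under 0.05 and for the brightest member of each group of prefixes, and for 2 further genes chosen after their values were seen (Sec22b and Atp6v1h). Of the other pathway and marker genes, Scamp3, Lamp1 and Laptm4b were singled out after their values were seen. Alternatives were further quantile normalization, centring, a prior variance that follows the level, array weights, the replicate number as a block, the spike level as a covariate, a minimum mean of 6, other choices of probe set and leaving out each heart. Columns that could not be mapped to a sample numbered 0. The number of arrays limits the precision.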

Additional observations from a re-analysis of the deposited data

How the results depend on the processing

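Of the 30 genes, 17 kept the sign of their difference in all 15 alternatives and 13 did not. Not every alternative could turn a sign. The prior variance, the replicate block and the minimum mean left every difference as it was. Other choices of probe set could change it only for the 5 genes with several probe sets. Centring lowered every difference by the same amount, so it could turn only positive ones. None of the 30 passed the adjustment in any alternative, and 1 of all 494 genes did with a prior variance that follows the level. At an unadjusted p under 0.05 the members numbered 4, but 2 with that prior variance, 2 with the spike level as a covariate and 1 with the replicate block (Ap1m1), and 1 to 5 when each heart was left out. With the prior variance, the covariate and the block the members made up 6.67%, 6.67% and 3.33%, against 12.3%, 10.5% and 9.72% of all genes. When each heart was left out the share ran from 3.33% to 16.7% of the members and from 6.88% to 14.98% of all genes. These shares were not tested against each other. A heart left out leaves 2 in its group, and limma pools the spread. Nothing in the labels says that replicate numbers pair the hearts. Deviations of same-numbered hearts correlated at -0.15, -0.08 and 0.18 over genes, and those of hearts with different numbers at -0.26 to 0.28. Deviations within a genotype sum to 0, so these correlations depend on each other and cannot settle whether hearts were paired. The numbers were not taken as pairs. The median of the 30 genes was -0.038 with centring, -0.033 without the 3 genes not known for traffic and -0.028 to 0.030 with each heart left out. With the spike covariate the median was -0.17 for the adaptors, 0.069 for the coat genes and -0.16 for the Rab genes. The coat median was -0.021 with centring and 0.066 with the dimmest probe set, and the Golgi median -0.040 to 0.069 with each heart left out.

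Signs turned as follows. Apart from the uniform shift by centring, the cause was not tested. Quantile normalization gave -0.028 for Ap1b1, -0.019 for Cops8 and -0.016 for Sec61a1. Centring gave -0.037 for Ap1b1, -0.029 for Copg1, -0.019 for Cops8, -0.023 for Sec23b and -0.040 for Sec61a1. The spike covariate gave -0.11 for Copa, -0.030 for Copg1, 0.046 for Gbf1, 0.0057 for Golm1 and -0.034 for Sec61a1, and the dimmest probe set -0.017 for Ehd1. Leaving out each heart gave -0.065 to 0.063 for Ap1b1, -0.10 to 0.0037 for Ap1s1, -0.14 to 0.0068 for Atp6v1b2, -0.031 to 0.14 for Copa, -0.020 to 0.037 for Copg1, -0.022 to 0.059 for Cops8, -0.15 to 0.076 for Rab31, -0.019 to 0.16 for Sec13, -0.032 to 0.062 for Sec23b and -0.038 to 0.075 for Sec61a1. No detection call was used, so dim probe sets such as those of Sec22b and Atp6v1h have no check against background.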
